A study of Mus musculus with 4 samples.

Results

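Blood vessels were read here through 34 endothelial genes in RNA from the mouse cochleovestibular ganglion (CVG), the ganglion whose neurons will serve hearing and balance. The genes were taken by symbol from a set of endothelial markers and angiopoietins, and all 34 are among the 25239 gene symbols of the tables. Ganglia came from embryos at embryonic day 11.5 of the genotypes labelled Isl1CKO, Pou4f1KO, DKO and control, with 1 library for each genotype. The names stand, as read here, for conditional loss of the LIM-homeodomain gene Isl1, loss of the POU-homeodomain gene Pou4f1, and loss of both genes. The Cre driver, the strain, the genotype of the control and the number of embryos per library were not stated in the sources used here. The study asked how ISL1 and POU4F1 act together in inner ear sensory neurons, so vessels were not its stated subject.

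Endothelial cells line all vessels and reach the embryonic head before neural tissue matures. They grow under VEGF, which signals through receptor tyrosine kinases on their surface, and vessels are stabilised or loosened by angiopoietins, which bind the receptor TIE2. ETS, SOXF and TAL1 transcription factors set the identity of these cells, and cadherin, claudin and related proteins seal the contacts between them.

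The aligned sequence came to 13.6 to 16.6 gigabases per library, and a gene at 1 TPM (a level per gene length that sums to 1000000 in each library) was covered 4.95 to 5.93 times on average. Pou4f1 stood at 16.6 TPM in Pou4f1KO and 14.6 TPM in DKO, against 146 TPM in control. Isl1 stood at 854 TPM in the library labelled Isl1CKO and 579 TPM in the library labelled DKO, against 450 TPM in control, which goes against both labels. Gene-level TPM sums over exons that a floxed allele may keep, so these values cannot check the deletion, and below the names Isl1CKO and DKO mean the libraries so labelled. Rn45s, a row of ribosomal precursor RNA, reached 3003 TPM in Pou4f1KO, while the other libraries held 655 to 844 TPM. The labels call the material CVG neurons, and 30 pan-neuronal genes together held 17829 to 20764 TPM per library. There are no replicates, so no p-value can be given, and each difference describes these libraries.

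The summed TPM of the 34 genes was a small share of every library. It does not measure the share of RNA that came from endothelial cells. The 34 genes together held 195 TPM in Isl1CKO, 250.4 TPM in Pou4f1KO, 329 TPM in DKO and 275 TPM in control. That is 0.0195% to 0.0329% of a library. Isl1CKO was lowest and DKO highest in this sum. Fewer endothelial cells in the dissected tissue and less RNA per endothelial cell cannot be told apart in bulk RNA.

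Of the 34 genes, 32 reached 1 TPM in at least 1 library, the level at which a gene entered the comparisons, as did 15049 of all genes. In Isl1CKO 31 of the 32 stood at 1 TPM or more, the exception being Ptprb at 0.963 TPM, and in each other library all 32 did. The remaining pair were Etv2 and Lyve1. Etv2, which encodes the ETS factor that starts endothelial and blood fate in the early embryo, was listed at 0 in all 4 libraries. Lyve1, the hyaluronan receptor known from lymphatic vessels, was at 0.262 TPM in Isl1CKO, 0.512 TPM in Pou4f1KO, 0.989 TPM in DKO and 0.598 TPM in control, so DKO fell just short of the limit. Just inside it was Ptprb, whose highest value was 1.28 TPM.

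The highest endothelial gene by mean TPM was Cd34, the sialomucin of vessel and blood progenitor surfaces, at 21.7 TPM in Isl1CKO, 22.7 TPM in Pou4f1KO, 35.4 TPM in DKO and 30.6 TPM in control. DKO and control lay above both single mutants. Next was Egfl7, a secreted vessel-tube protein, at 15.9 TPM in Isl1CKO, 17.98 TPM in Pou4f1KO, 23.5 TPM in DKO and 21.2 TPM in control. Cdh5, Pecam1, Kdr, Emcn, Plvap and Ramp2 followed. The gap between the highest and the lowest library was 1.66-fold for the median gene of the 32, and ran between 1.16-fold for Vwf, the platelet-binding von Willebrand factor, and 8.72-fold for Angpt1.

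**Figure D1:**
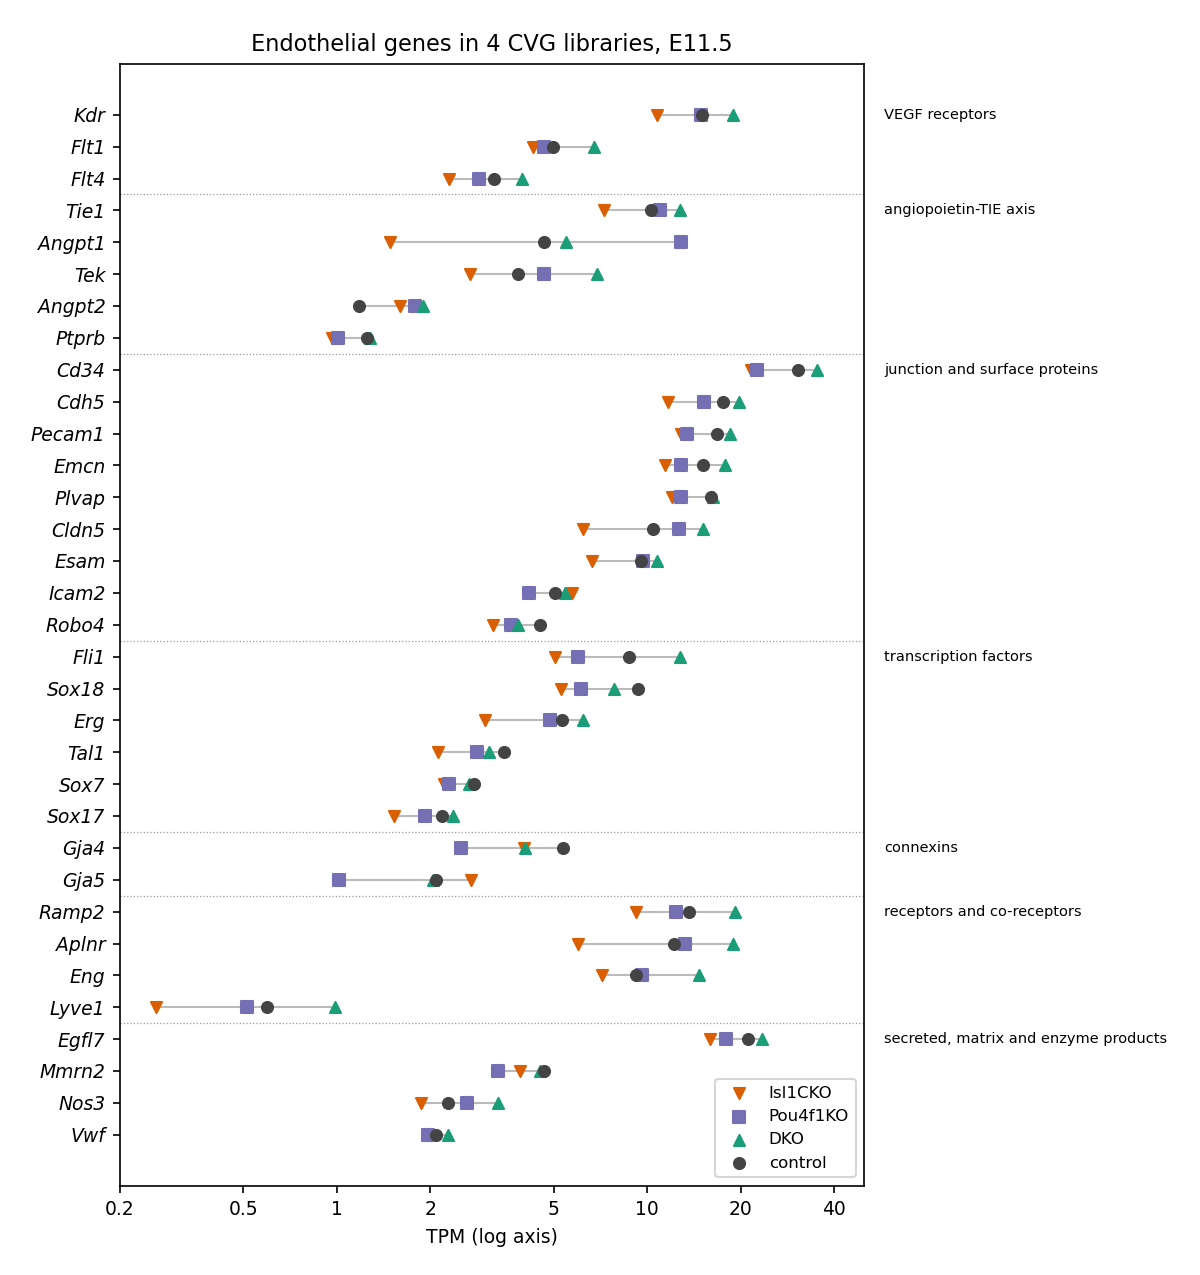
TPM (log axis) of the 33 endothelial genes above 0 in the Isl1CKO, Pou4f1KO, DKO and control libraries, 1 point per library, grouped by role. Isl1CKO is the lowest library for 26 of the 32 genes that reached 1 TPM, and Angpt1 spans 1.48 to 12.9 TPM.

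The order of the libraries was shared by much of the set. Isl1CKO was the lowest library for 26 of the 32 genes (81.2%), against 27.8% of the 15049 genes, and DKO was the highest for 23 (71.9%), against 21.9% of all genes. Both held at once for 21 genes, and for 7.04% of all genes. The full order DKO, control, Pou4f1KO, Isl1CKO from high to low was that of 14 genes, and of 3.30% of all genes. The exceptions at the top were Icam2 and Gja5, highest in Isl1CKO, and Angpt1, highest in Pou4f1KO. Sox7, Sox18, Tal1, Robo4, Mmrn2 and Gja4 were highest in control.

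For Isl1CKO against control, the endothelial genes were lower nearly throughout. The log2 ratio of (TPM + 1), used for every ratio here and flatter than the true ratio for weakly expressed genes, was below 0 for 29 of the 32, against 56.5% of all genes. The median was −0.39, against −0.02 over all genes. Angpt2 (0.26), Gja5 (0.26) and Icam2 (0.15) were the 3 genes above 0 (43.5% of all genes). At least 1.5-fold lower were 6 of the 32, against 3.26% of all genes, and they were Angpt1 (−1.19), Aplnr (−0.92), Sox18 (−0.72), Fli1 (−0.69), Cldn5 (−0.67) and Erg (−0.66). Angpt1 alone was at least 2-fold lower, against 0.618% of all genes, and none of the 32 was 1.5-fold higher (2.15%) or 2-fold higher (0.585%).

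For Pou4f1KO against control, the set lay closer to 0 than for Isl1CKO, and its counts past 1.5-fold were near the share of all genes. The median was −0.15, against 0.02 over all genes, with 23 of the 32 below 0 (46.2% of all genes) and 9 above (53.8%). The 2 connexin genes Gja4 (−0.85) and Gja5 (−0.61) were the ones at least 1.5-fold lower, against 4.21% of all genes. Angpt1 (1.30) was the 1 gene at least 1.5-fold higher (3.47%), and it was also past 2-fold (0.977%). This comparison uses neither library whose Isl1 value goes against its label. Pan-neuronal genes had a median of 0.32 here. With the libraries scaled to equal pan-neuronal genes the endothelial median was −0.39, against −0.27 over all genes.

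For DKO against control, the endothelial genes were mostly higher. Of the 32, 25 were above 0 (48.4% of all genes), with a median of 0.18, against −0.01 over all genes. Tek (0.70), Eng (0.62) and Aplnr (0.59) were at least 1.5-fold higher, 3 of 32, against 3.63% of all genes, and none was 1.5-fold lower (5.28%). The 7 genes below 0 (51.6% of all genes) were Gja4 (−0.33), Sox18 (−0.23), Robo4 (−0.19), Tal1 (−0.13), Sox7 (−0.04), Mmrn2 (−0.04) and Gja5 (−0.02). With libraries scaled to equal pan-neuronal genes the median was 0.023, against −0.16 over all genes, and 18 of the 32 lay above 0. All 3 comparisons share the control library.

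**Figure D2:**
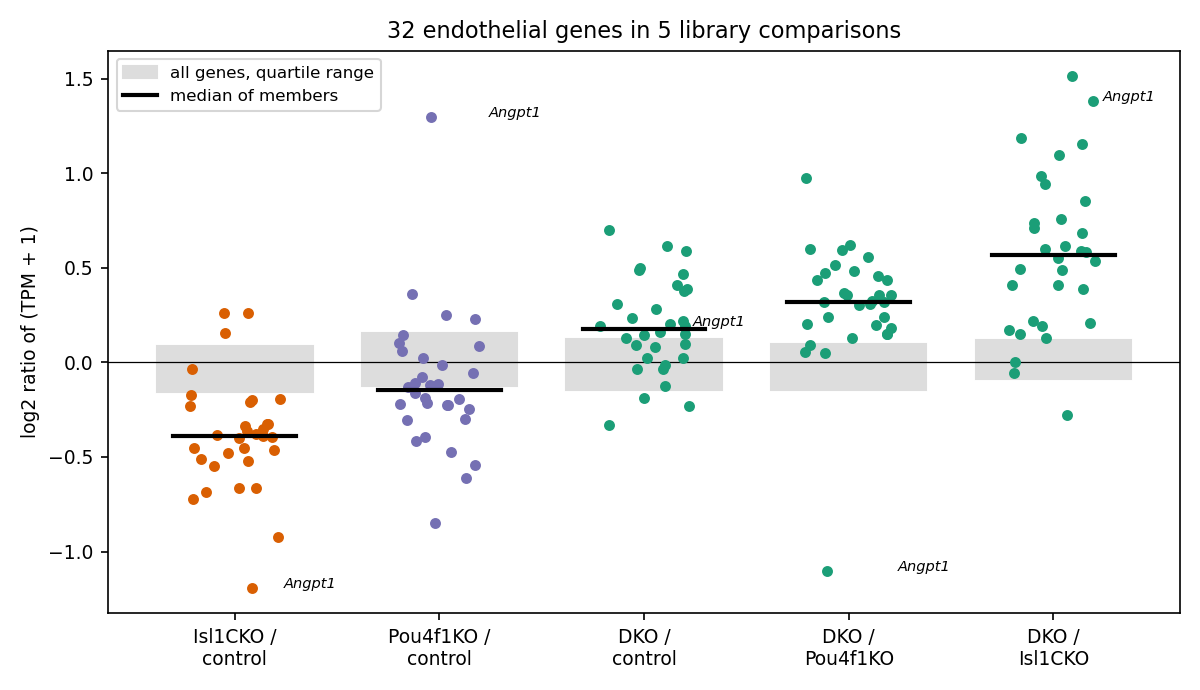
Log2 ratio of (TPM + 1) for the 32 endothelial genes (points), their median (black bar) and the quartile range of all 15049 genes (grey box) in 5 library comparisons. The member medians are −0.39, −0.15 and 0.18 against control, 0.32 for DKO over Pou4f1KO and 0.57 for DKO over Isl1CKO.

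The DKO library also exceeded both single mutants. Against Isl1CKO, 30 of the 32 genes were above 0 (53.4% of all genes) with a median of 0.57, and 16 were at least 1.5-fold higher (3.47%). Past 2-fold were Aplnr (1.51), Angpt1 (1.38), Fli1 (1.19), Cldn5 (1.16) and Tek (1.10), against 0.870% of all genes. Gja5 (−0.28) and Icam2 (−0.06) were the 2 below 0 (46.6% of all genes), and no gene was 1.5-fold lower (3.3%). Against Pou4f1KO, 31 of the 32 were above 0 (44.9% of all genes) with a median of 0.32. At least 1.5-fold higher were 4 (2.44%), namely Fli1 (0.97), Cd34 (0.62), Ramp2 (0.60) and Gja5 (0.59), and no gene was 2-fold higher (0.645%). Angpt1 (−1.10) was the 1 gene below 0 (55% of all genes), and it was past both 1.5-fold (3.68%) and 2-fold (1.12%). Both comparisons share the DKO library.

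The layout gives each label's difference in 2 backgrounds that share no library. The Isl1 label can be read as Isl1CKO over control and as DKO over Pou4f1KO. For 28 of the 32 endothelial genes the ratio was below 0 in the first pair and above 0 in the second, against 22.5% of all genes. Gja5, Angpt2 and Icam2 were above 0 in both pairs (22.4% of all genes), Angpt1 was below 0 in both (33.9%), and no gene was above 0 in the first pair alone (21.1%). The count was also 28 under median-of-ratios and pan-neuronal scaling.

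Fli1 had the widest split, with a log2 ratio of −0.69 for Isl1CKO over control and 0.97 for DKO over Pou4f1KO. Aplnr followed with −0.92 and 0.48, then Ramp2 with −0.52 and 0.60 and Cd34 with −0.48 and 0.62. In each of these genes the mean of the 2 ratios lay between −0.22 and 0.14. For Angpt1 the 2 ratios were −1.19 and −1.10, with a mean of −1.15.

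The Pou4f1 label can be read as Pou4f1KO over control and as DKO over Isl1CKO. Here 21 of the 32 genes were below 0 in the first pair and above 0 in the second, against 19.7% of all genes, and 9 were above 0 in both (33.7%). The medians of the 2 pairs were −0.15 and 0.57. Gja5 (−0.61 and −0.28) and Icam2 (−0.22 and −0.06) were below 0 in both (26.5%), and none was above 0 in the first pair alone (20.1%). Angpt1 was above 0 in both, at 1.30 and 1.38, and no other gene of the 32 reached 0.4 in both. The count of 21 became 20 under median-of-ratios scaling and 27 under pan-neuronal scaling. Under pan-neuronal scaling 2 of the 32 lay above 0 in Pou4f1KO over control, so the count of 9 did not hold there.

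**Figure D3:**
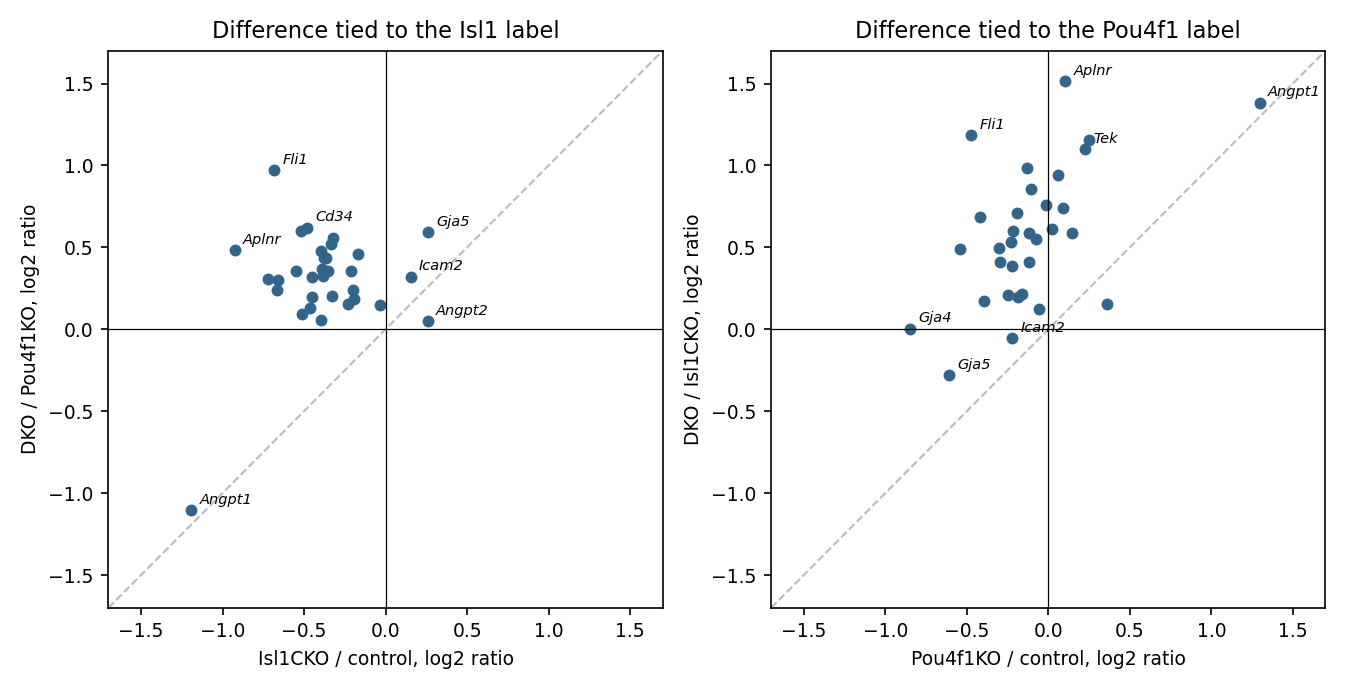
Log2 ratios of the 32 endothelial genes for each label in 2 pairs that share no library, with equal values on the dashed line. On the left 28 genes lie in the upper left part, and Angpt1 lies near the line in both panels, at −1.19 and −1.10 and at 1.30 and 1.38.

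The departure from additivity puts this in 1 value per gene, as the log2 ratio of DKO to control minus those of both single mutants. It was above 0 for 31 of the 32 genes (47.7% of all genes), with a median of 0.71, against −0.01 over all genes. At least 1.5-fold were 21 genes (5.24%), and past 2-fold were Fli1 (1.66), Aplnr (1.41), Ramp2 (1.12), Cd34 (1.10) and Sox18 (1.03), against 1.41% of all genes. Angpt1 had a departure of 0.09, and Angpt2 (−0.21) was the 1 gene below 0 (52.3% of all genes). The departure was not particular to endothelial genes. Among marker lists described below, its median was 0.996 for mesenchyme and 0.964 for surface ectoderm markers, above that of the endothelial set. It was −0.32 for pan-neuronal genes and −0.80 for neural tube factors. With 1 library per genotype the departure has no residual degrees of freedom.

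The angiopoietin and TIE genes held the gene that stood farthest from the rest. Angpt1 (ENSMUSG00000022309.9, chromosome 15 of mm10, 42424667 to 42676977, on the minus strand with up to 9 exons) encodes the TIE2 agonist, which is made mostly by cells around vessels and not by the endothelium. It was at 1.48 TPM in Isl1CKO, 12.9 TPM in Pou4f1KO, 5.47 TPM in DKO and 4.66 TPM in control. Pou4f1KO was high, Isl1CKO was low, and DKO lay near control. The coverage behind these values was 7.31, 74.4 and 31.8 reads per base in the mutants, in the same order, and 27.6 in control.

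Angpt2 (chromosome 8, 18690263 to 18741562, minus strand) encodes the context-dependent antagonist that endothelial cells release. It was at 1.60 TPM in Isl1CKO, 1.79 TPM in Pou4f1KO, 1.89 TPM in DKO and 1.17 TPM in control. All 3 mutant libraries exceeded control, at a level near 1 TPM. Its row lies on the opposite strand from Mcph1, which was at 12.3 to 13.5 TPM, and no source used here says whether reads were assigned by strand. The Angpt1 level was 0.923 times that of Angpt2 in Isl1CKO, 7.20 times in Pou4f1KO and 2.89 times in DKO, against 3.97 times in control.

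Tek (chromosome 4, 94739289 to 94874976, plus strand, up to 23 exons) encodes TIE2 itself. It was at 2.68 TPM in Isl1CKO, 4.67 TPM in Pou4f1KO, 6.88 TPM in DKO and 3.84 TPM in control. Tie1, the related receptor with no well established ligand, was at 7.27 TPM in Isl1CKO, 11.0 TPM in Pou4f1KO, 12.8 TPM in DKO and 10.3 TPM in control. Both receptor genes were lowest in Isl1CKO and highest in DKO, unlike their ligand gene Angpt1. Ptprb, the phosphatase that dampens TIE2 and VE-cadherin signalling, ranged over 0.963 to 1.28 TPM. The Angpt1 level per Tek level was 0.552 in Isl1CKO, 2.76 in Pou4f1KO and 0.795 in DKO, against 1.21 in control.

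**Figure D4:**
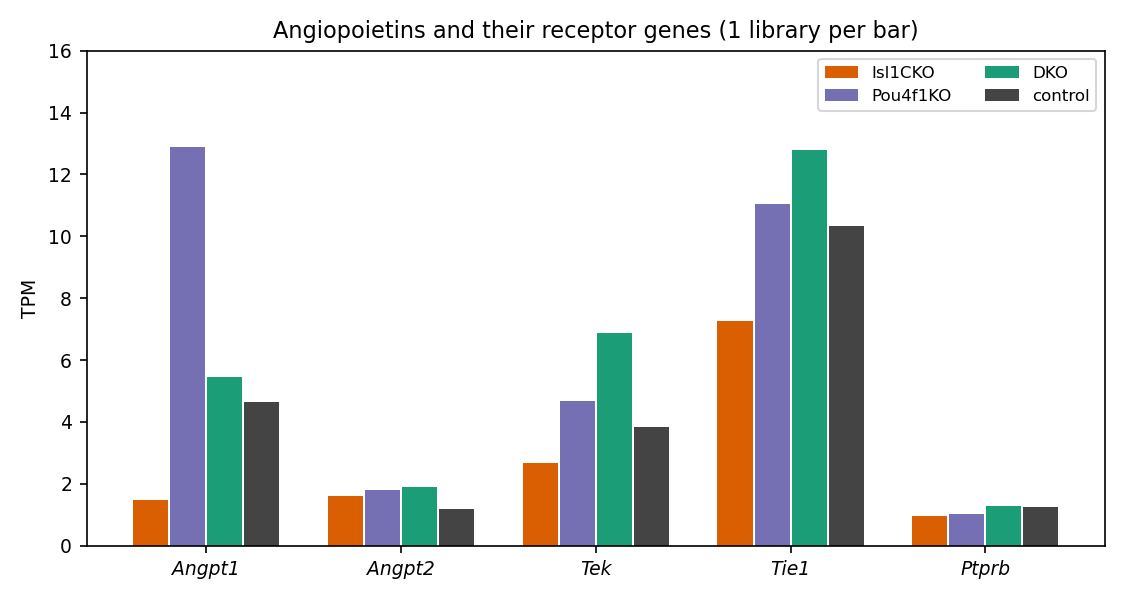
TPM of the angiopoietin genes Angpt1 and Angpt2, the TIE receptor genes Tek and Tie1 and the phosphatase gene Ptprb in the Isl1CKO, Pou4f1KO, DKO and control libraries (1 library per bar, no error bars). Angpt1 is highest in Pou4f1KO at 12.9 TPM and lowest in Isl1CKO at 1.48 TPM, whereas Tek and Tie1 are highest in DKO.

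The VEGF receptor genes kept 1 pattern. Kdr (chromosome 5, 75932827 to 75978455, minus strand), the main signalling receptor VEGFR2, was at 10.8 TPM in Isl1CKO, 14.9 TPM in Pou4f1KO, 18.9 TPM in DKO and 15.1 TPM in control. Flt1, the decoy-like receptor VEGFR1, was at 4.30 TPM in Isl1CKO, 4.65 TPM in Pou4f1KO, 6.76 TPM in DKO and 4.96 TPM in control. Flt4, the VEGF-C receptor VEGFR3, was at 2.30 TPM in Isl1CKO, 2.88 TPM in Pou4f1KO, 3.96 TPM in DKO and 3.21 TPM in control. All 3 were lowest in Isl1CKO and highest in DKO, with Pou4f1KO just under control.

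Their ligand genes had other profiles. Vegfa, the main endothelial growth factor and a hypoxia-induced gene, was at 74.3 TPM in Isl1CKO, 64.7 TPM in Pou4f1KO, 83.2 TPM in DKO and 57.3 TPM in control. It was thus above control in the library where Kdr was lowest and in the one where Kdr was highest. Vegfd, a ligand of VEGFR3, was at 22.6 TPM in Isl1CKO, 58.9 TPM in Pou4f1KO, 37.9 TPM in DKO and 33.4 TPM in control, the same order of libraries as Angpt1. The co-receptor gene Nrp2, which growing axons also use, had log2 ratios to control of −0.11 in Isl1CKO, 0.69 in Pou4f1KO, and 0.49 for DKO, and Nrp1 of −0.004, 0.26 and 0.22. Of the 7 VEGF ligand and neuropilin genes measured, Isl1CKO had 5 below control (56.5% of all genes), Pou4f1KO had 2 (46.2%) and DKO had 2 (51.6%).

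Genes of endothelial junctions and surfaces shared a pattern. Cdh5 (chromosome 8, 104101625 to 104144502, plus strand), which encodes VE-cadherin, was at 11.7 TPM in Isl1CKO, 15.3 TPM in Pou4f1KO, 19.8 TPM in DKO and 17.6 TPM in control. Pecam1 (CD31) was at 12.8 TPM in Isl1CKO, 13.4 TPM in Pou4f1KO, 18.5 TPM in DKO and 16.8 TPM in control. Emcn, an endothelial mucin, was at 11.4 TPM in Isl1CKO, 12.9 TPM in Pou4f1KO, 17.8 TPM in DKO and 15.1 TPM in control. In these genes Isl1CKO was lowest, Pou4f1KO was second lowest, and DKO exceeded control.

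Cldn5, the claudin of tight endothelial barriers, had the largest fold range of this group. It was at 6.23 TPM in Isl1CKO, 12.6 TPM in Pou4f1KO, 15.1 TPM in DKO and 10.5 TPM in control, so Pou4f1KO exceeded control. Esam, an endothelial junction adhesion molecule, had log2 ratios to control of −0.46 in Isl1CKO, 0.02 in Pou4f1KO and 0.15 in DKO. Robo4, a receptor that stabilises vessels, was at 3.18 TPM in Isl1CKO, 3.64 TPM in Pou4f1KO, 3.83 TPM in DKO and 4.50 TPM in control, and so lay below control in all mutants. Plvap, the diaphragm protein of leaky vessels, had a log2 ratio of −0.39 in Isl1CKO, −0.30 in Pou4f1KO and 0.03 in DKO. Icam2, an adhesion molecule of endothelium and leukocytes, departed from it with 5.71 TPM in Isl1CKO, 4.16 TPM in Pou4f1KO, 5.45 TPM in DKO and 5.03 TPM in control. Of the group of 9, Isl1CKO had 8 genes below control (56.5% of all genes), Pou4f1KO had 7 (46.2%) and DKO had 1 (51.6%).

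The transcription factor genes were lower than control in both single mutants, all 6 that were measured in each, against 56.5% of all genes in Isl1CKO and 46.2% in Pou4f1KO. Fli1 (chromosome 9, 32422204 to 32541452, minus strand), an ETS factor of endothelial and blood cells, was at 5.04 TPM in Isl1CKO, 6.01 TPM in Pou4f1KO, 12.8 TPM in DKO and 8.72 TPM in control. Erg, the ETS factor that keeps endothelial identity, was at 2.996 TPM in Isl1CKO, 4.87 TPM in Pou4f1KO, 6.23 TPM in DKO and 5.33 TPM in control. Fli1 and Erg were highest in DKO. The SOXF gene Sox18 (chromosome 2, 181669837 to 181671640, minus strand) was at 5.26 TPM in Isl1CKO, 6.11 TPM in Pou4f1KO, 7.80 TPM in DKO and 9.33 TPM in control. It was below control in all 3 mutants, and so were its paralog Sox7 (2.21, 2.31 and 2.67 TPM, against 2.77 TPM in control) and Tal1, a bHLH factor of blood and vessels (2.12, 2.82 and 3.08 TPM, against 3.46 TPM in control). Sox17, the arterial SOXF factor, was at 1.53 TPM in Isl1CKO, 1.92 TPM in Pou4f1KO, 2.36 TPM in DKO and 2.17 TPM in control.

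The connexin genes of arterial gap junctions were lowest in Pou4f1KO. Gja4 (connexin 37; chromosome 4, 127311420 to 127314039, minus strand) was at 4.02 TPM in Isl1CKO, 2.52 TPM in Pou4f1KO, 4.03 TPM in DKO and 5.34 TPM in control. Gja5 (connexin 40; chromosome 3, 97032402 to 97053634, plus strand) was at 2.70 TPM in Isl1CKO, 1.02 TPM in Pou4f1KO, 2.05 TPM in DKO and 2.08 TPM in control. Control held the top value of Gja4 and Isl1CKO that of Gja5. Coverage in Pou4f1KO was 14.5 reads per base for Gja4 and 5.77 for Gja5, so the Gja5 value rests on few reads. Relative to the median of the set in Pou4f1KO, Gja4 lay at −0.70 and Gja5 at −0.46 on the log2 scale.

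Genes of the artery and Notch programme were read beside the connexins, from a list of 14 of which 13 reached 1 TPM. Efnb2, the arterial ephrin that neural cells also make, was at 100.04 TPM in Isl1CKO, 159 TPM in Pou4f1KO, 117 TPM in DKO and 143 TPM in control. Nr2f2, the vein factor COUP-TFII, was at 52.4 TPM in Isl1CKO, 82.6 TPM in Pou4f1KO, 69.9 TPM in DKO and 57.6 TPM in control. Cxcr4 had log2 ratios to control of −0.32, 0.33 and −0.18 in Isl1CKO, Pou4f1KO and DKO, and the Notch target Nrarp of 0.01, −0.03 and −0.24. The 13 genes had medians of −0.27 in Isl1CKO, −0.03 in Pou4f1KO and −0.29 for DKO. Below control lay 12, 7 and 12 of them, against 56.5%, 46.2% and 51.6% of all genes. In DKO this is the opposite side from the endothelial set, and the connexin genes Gja4 (−0.33) and Gja5 (−0.02) also lay below control there. Most genes of the list are not restricted to vessels, and the part of other cells in their values was not tested.

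Promoter sequences are shown for Tek, which had the highest ratio of DKO to control among the 32 genes, and Gja4, which had the lowest ratio of Pou4f1KO to control. Other ends of the set, such as Angpt1, are not shown. RefSeq promoters (GRCm38.p6, the mm10 assembly, 250 bases before to 50 after a start) were found for 16 of the 34 genes, 21 promoters in all, and were searched on both strands. The SOX-type core ACAAT stood in 6 of the 21 (28.6%) and in 31.0% of all 32851 promoters, and the GATA core GATAA in 6 (28.6%) and in 25.4% of all. The ETS site CCGGAAG was in none of the 21 (8.86% of all), and neither was the E-box CACGTG (7.15%). The TATA box TATAAA was in 2 (9.52%, against 13.6% of all), those of Erg and Flt1. These shares describe letters in the windows and were not tied to the levels. The 250 bases before each start follow, 5′ to 3′ on the gene's strand, with matches to ACAAT on either strand in capitals.
Tek promoter, chr4:94739039-94739288, plus strand: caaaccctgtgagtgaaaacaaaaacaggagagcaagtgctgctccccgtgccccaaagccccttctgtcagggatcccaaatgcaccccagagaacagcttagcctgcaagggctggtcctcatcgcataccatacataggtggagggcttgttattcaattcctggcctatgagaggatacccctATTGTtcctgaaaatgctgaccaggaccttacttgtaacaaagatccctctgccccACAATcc
Gja4 promoter, chr4:127314040-127314289, minus strand: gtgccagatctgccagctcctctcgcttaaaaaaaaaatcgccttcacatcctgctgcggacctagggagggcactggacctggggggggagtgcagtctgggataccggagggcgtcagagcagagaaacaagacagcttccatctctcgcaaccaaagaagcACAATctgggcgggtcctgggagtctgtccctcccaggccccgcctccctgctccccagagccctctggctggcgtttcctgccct

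Receptors that gate vessel growth had the widest spread among the remaining genes. Aplnr (chromosome 2, 85136360 to 85139923, plus strand), the apelin receptor of venous and sprouting endothelium, was at 5.97 TPM in Isl1CKO, 13.2 TPM in Pou4f1KO, 18.9 TPM in DKO and 12.2 TPM in control. Its ligand gene Apln was at 1.62 TPM in Isl1CKO, 2.25 TPM in Pou4f1KO, 2.94 TPM in DKO and 2.45 TPM in control. Both were lowest in Isl1CKO and highest in DKO. Ramp2, the partner of the adrenomedullin receptor, was at 9.23 TPM in Isl1CKO, 12.4 TPM in Pou4f1KO, 19.3 TPM in DKO and 13.7 TPM in control.

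Eng (endoglin), the co-receptor for BMP9, was at 7.17 TPM in Isl1CKO, 9.65 TPM in Pou4f1KO, 14.7 TPM in DKO and 9.23 TPM in control. The partner receptor gene Acvrl1 (ALK1) was at 5.78 TPM in Isl1CKO, 6.23 TPM in Pou4f1KO, 9.84 TPM in DKO and 7.07 TPM in control. Gdf2 and Bmp10, which encode the circulating ligands, were listed at 0 in all libraries, whereas Eng and Acvrl1 were both highest in DKO. Most of the BMP9 pathway list did not share this. Of its 7 genes measured, 5 lay below control in DKO (51.6% of all genes). Among these 5 were Id3 (−0.02), Id2 (−0.21) and Id1 (−0.12), the genes of the list with the highest levels. The row of Eng overlaps the opposite-strand gene Fpgs, at 14.9 to 18.7 TPM, and that of Plvap overlaps Gtpbp3, at 26.1 to 30.1 TPM.

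Secreted, matrix and enzyme products did not share 1 order of libraries. Nos3, endothelial nitric oxide synthase, was at 1.86 TPM in Isl1CKO, 2.64 TPM in Pou4f1KO, 3.30 TPM in DKO and 2.29 TPM in control. Mmrn2, a vessel matrix protein, was at 3.89 TPM in Isl1CKO, 3.31 TPM in Pou4f1KO, 4.51 TPM in DKO and 4.66 TPM in control, with control on top. Vwf stayed within 1.97 to 2.29 TPM. The precursor row of Mir126a, the endothelial microRNA that Egfl7 hosts, was at 0.706 TPM in Isl1CKO, 1.87 TPM in Pou4f1KO, 3.76 TPM in DKO and 0.686 TPM in control. It shares its bases with Egfl7, so its reads are uncertain.

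Endothelial genes outside the set were read in the same 4 libraries, so they are not an independent reading. Of a further list of 24 markers, 22 reached 1 TPM. In Isl1CKO 19 of them lay below control (56.5% of all genes), in Pou4f1KO 12 (46.2%) and in DKO 4 (51.6%). The medians were −0.26, −0.06 and 0.20. The genes of this list with the highest levels are Sox13, Arhgap29, Shank3 and Lmo2. Lmo2, a partner of TAL1, was at 9.62 TPM in Isl1CKO, 9.57 TPM in Pou4f1KO, 15.8 TPM in DKO and 12.0 TPM in control. Arhgap29 (−0.03, 0.19 and 0.65), Shank3 (0.38, 0.17 and 0.50) and Sox13 (−0.17, 0.13 and −0.13) are given as log2 ratios to control in the 3 mutants in the order just used. Shank3 and Sox13 followed other orders than most of the set. Both are also expressed in neural cells, whose part in these values was not tested. The flow-responsive genes Klf2, Klf4 and Thbd had medians of −0.42, −0.15 and 0.23 in the same libraries.

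Markers of other cells also differed between libraries. Mesenchyme markers, 15 of 16 of which reached 1 TPM, had medians of −0.51 in Isl1CKO, −0.12 in Pou4f1KO and 0.40 in DKO, the same order as the endothelial set. Their summed level was 417 TPM in Isl1CKO, 609 TPM in Pou4f1KO, 677 TPM in DKO and 517 TPM in control, and none was at 0 in any library. In this sum Pou4f1KO exceeded control, unlike in the endothelial sum. The sum rests largely on Postn, and 9 of the 15 markers lay below control in Pou4f1KO (46.2% of all genes). Postn, Col3a1, Col1a2 and Lum held the highest levels. Col3a1 was at 72.9 TPM in Isl1CKO, 96.2 TPM in Pou4f1KO, 137 TPM in DKO and 103 TPM in control. Postn was highest in Pou4f1KO, at 207, 314 and 263 TPM in the mutants in that order, against 208 TPM in control. Col1a2 (35.7, 70.5 and 80.4 TPM, against 51.3 TPM in control) and Lum (27.0, 30.9 and 47.7 TPM, against 30.4 TPM) also had Pou4f1KO above control. The basement membrane genes, 10 of 10 measured, had medians of −0.36, −0.02 and 0.02 in Isl1CKO, Pou4f1KO and DKO. The part of mesenchyme in the endothelial differences was not tested.

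The medians of mural and blood cell markers did not show that order, although the summed pericyte and smooth muscle markers and Pdgfrb did. Of 14 pericyte and smooth muscle markers, 11 reached 1 TPM, with medians of 0.09 in Isl1CKO, −0.02 in Pou4f1KO and 0.37 for DKO, and sums of 55.6, 60.3 and 69.4 TPM, against 60.8 TPM in control, and 1 marker was listed at 0 in DKO and 1 in control. Pdgfrb, the pericyte and mesenchyme receptor, was at 9.31 TPM in Isl1CKO, 11.1 TPM in Pou4f1KO, 17.3 TPM in DKO and 12.6 TPM in control. Erythroid markers summed to 6927 TPM in Isl1CKO, 6293 TPM in Pou4f1KO, 7452 TPM in DKO and 7671 TPM in control, with medians of −0.12, −0.24 and −0.04. Macrophage markers summed to 69.5, 58.1 and 77.2 TPM in the mutants in that order, against 78.5 TPM in control, with medians of −0.15, −0.30 and −0.02. Platelet and progenitor markers had medians of −0.38, −0.46 and −0.27. In each of these 3 blood lists Pou4f1KO had the lowest median. The part of these cells in the values of Cd34, Fli1 and Tal1, which blood progenitors also express, was not tested.

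Epithelium and neural tube content also differed between libraries. Surface ectoderm markers had medians of −0.75 in Isl1CKO, −2.08 in Pou4f1KO and −1.90 for DKO, and otic epithelium markers of −0.60, −1.30 and −1.42. Neural tube factors had medians of −0.24, 1.32 and 0.22, the highest in Pou4f1KO, the library where Angpt1 and Vegfd were also highest. Hypoxia-responsive genes had medians of 0.38, 0.05 and 0.29, and proliferation genes of −0.20, −0.29 and −0.23. Their part in the endothelial values was not tested.

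**Figure D5:**
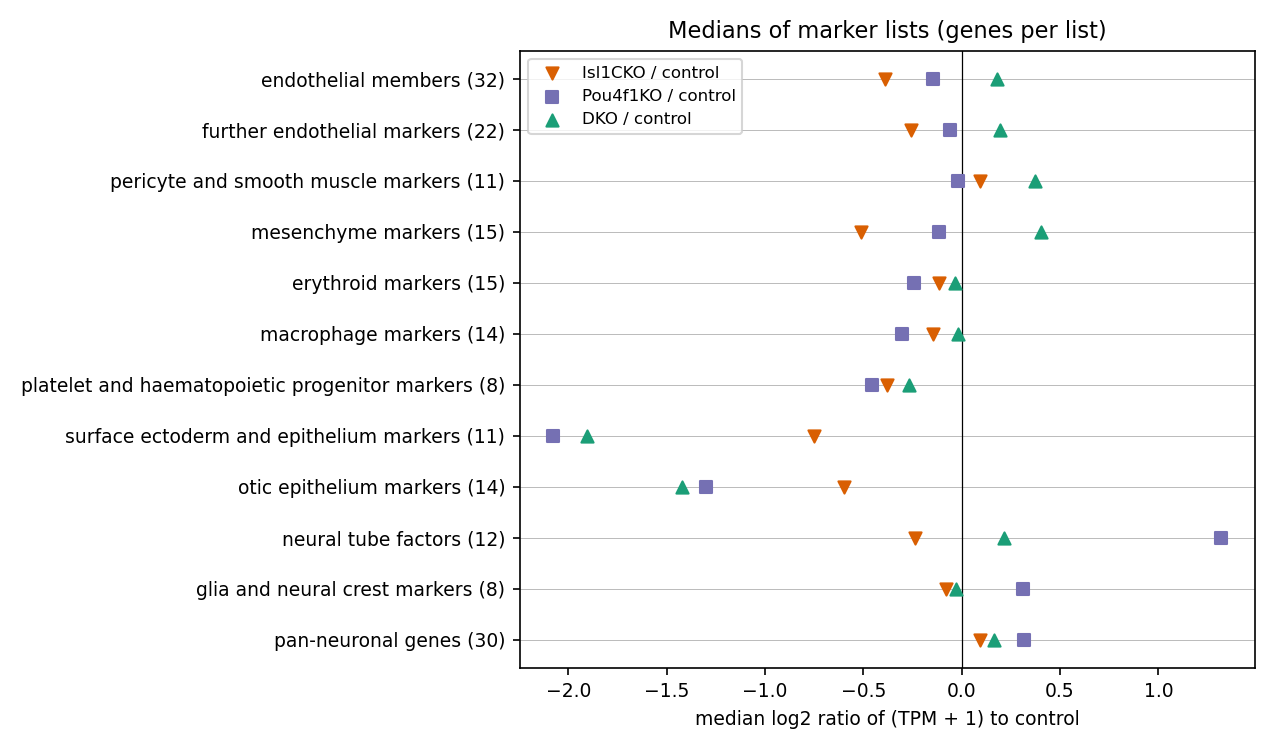
Median log2 ratio of (TPM + 1) to control for the 32 endothelial genes and 11 marker lists, with Isl1CKO, Pou4f1KO and DKO as separate symbols. The endothelial, further endothelial and mesenchyme medians run in the order Isl1CKO, Pou4f1KO, DKO from low to high, whereas the epithelial medians are below 0 in all 3 mutants.

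With the level of the set taken off, the set lay no closer to its median than all genes did to theirs. Within 0.2 of the set's median on the log2 scale were 21 of the 32 genes in Isl1CKO, 18 in Pou4f1KO and 17 in DKO, each against control, while 68.6%, 63.5% and 64.3% of all genes lay within 0.2 of the all-gene median. In Isl1CKO the 2 shares were close. The set is also more weakly expressed, with medians of 4.67 to 6.82 TPM per library, against 21.9 to 22.8 TPM over all genes. The part of this in the spread was not tested. The genes farthest above the median were Gja5 and Angpt2 in Isl1CKO (both 0.65), Angpt1 in Pou4f1KO (1.44) and Tek in DKO (0.53). The farthest below were Angpt1 in Isl1CKO (−0.80), Gja4 in Pou4f1KO (−0.70) and Gja4 in DKO (−0.51). Angpt1 in DKO lay 0.02 from the median.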

How the data were processed

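RNA of dissected, frozen ganglia was sequenced as strand-specific libraries, per the labels' protocols. The submitters' processing notes name mm10, StringTie, HISAT2, SAMtools, Trimmomatic and FastQC; versions, order, annotation and settings are not given in the sources used here. Deposited by the authors were TPM, which sums to 1000000 in each library, FPKM, a constant multiple of TPM within a library, and coverage, the mean read depth per base, per the file headers. Read counts were not given, so no interval was computed and coverage serves as the depth behind a value.

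TPM rows sharing a symbol were summed (pandas 2.3.3, Python 3.11.15). Ratios are log2 of (TPM + 1), over genes with 1 TPM in at least 1 library. Because TPM shares 1 total, each ratio is relative to the rest of the library. With 1 library per genotype no test was run, and counts past 1.5-fold and 2-fold describe the libraries beside the share of all genes. Gene IDs and exons come from GENCODE M21, which all 34 rows overlapped on their strand. All 34 members are named, with up to 4 genes of highest mean TPM from each of 23 other lists, while Gdf2, Bmp10 and Mir126a were named after their values were seen. The members and lists were chosen with earlier results of these data known. Alternatives changed the pseudocount, filter, unit, scaling and handling of shared symbols. The code of the ratio step was checked on well expressed genes of the control library multiplied by known folds. That check covered no level as low as those of the set.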

Additional observations from a re-analysis of the deposited data

Results flagged for a closer look

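The difference tied to the Isl1 label ran in opposite directions in its 2 backgrounds. The median log2 ratio of the endothelial genes was −0.39 for Isl1CKO over control and 0.32 for DKO over Pou4f1KO. Fli1 was the 1 gene past 1.5-fold in both with opposite signs, at −0.69 and 0.97. For the Pou4f1 label the medians were −0.15 for Pou4f1KO over control and 0.57 for DKO over Isl1CKO. With 1 library per genotype, none of these differences was tested.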

How the results depend on the processing

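No paired analysis was possible because each genotype has 1 library, and for the same reason no replicate could be left out. No median changed sign and no gene past 1.5-fold changed direction under any of the 9 alternatives. A pseudocount of 5 gave medians of −0.27 (Isl1CKO over control), 0.20 (DKO over Pou4f1KO) and 0.37 (DKO over Isl1CKO). It left 1 gene 1.5-fold and 0 genes 2-fold lower in Isl1CKO, 0 genes 1.5-fold lower and 0 genes 2-fold higher in Pou4f1KO, and 0 genes 1.5-fold higher in DKO. Against Pou4f1KO it left 1 gene 1.5-fold higher and 0 genes 2-fold lower in DKO, and against Isl1CKO 9 and 1 genes 1.5-fold and 2-fold higher. A pseudocount of 0.1 gave 2 and 1 genes 2-fold lower in Isl1CKO and Pou4f1KO, and 1 and 8 genes 2-fold higher in DKO over Pou4f1KO and over Isl1CKO. With FPKM, where adding 1 weighs more and 26 genes enter, 2 genes were 1.5-fold and 0 genes 2-fold lower in Isl1CKO, 1 gene was 1.5-fold lower in Pou4f1KO, and 0 genes were 1.5-fold higher in DKO over control. In DKO over Pou4f1KO 2 genes were 1.5-fold higher and 0 genes 2-fold lower, and in DKO over Isl1CKO 1 gene was 2-fold higher. Pan-neuronal scaling shifted the median of all genes by construction (to −0.11, −0.27 and −0.16 in Isl1CKO, Pou4f1KO and DKO over control, and to 0.12 in DKO over Pou4f1KO) and gave endothelial medians of −0.39 in Pou4f1KO, 0.023 in DKO and 0.46 in DKO over Pou4f1KO. Under it 2 genes were 2-fold lower in Isl1CKO, 8 and 1 genes 1.5-fold and 2-fold lower in Pou4f1KO, 0 genes 1.5-fold higher in DKO over control, and 8 and 1 genes 1.5-fold and 2-fold higher and 0 genes 2-fold lower in DKO over Pou4f1KO. Genes near 1 TPM, such as Angpt2, Gja5 and Ptprb, rest on coverage of 4.76 to 13.1 reads per base. Over all genes, counts past 1.5-fold ranged over 112 to 905 lower in Isl1CKO (491 as reported), 248 to 1511 lower in Pou4f1KO (634), 193 to 837 higher in DKO over control (547), 84 to 665 higher in DKO over Pou4f1KO (367) and 143 to 878 higher in DKO over Isl1CKO (522). Pan-neuronal scaling left 2 of 32 members above 0 in Pou4f1KO and 18 in DKO, both over control.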

Other observations

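Lymphatic factor genes had medians of −0.26 in Isl1CKO, 0.08 in Pou4f1KO and −0.29 in DKO, as log2 ratios of (TPM + 1) to control. Prox1, the lymphatic factor that otic cells also make, was at 4.80 TPM in Isl1CKO, 8.04 TPM in Pou4f1KO, 4.70 TPM in DKO and 5.96 TPM in control. Pdpn and Sema3f, the genes of this list with the highest levels, were instead highest in control. They were the 2 below control in Pou4f1KO, at −0.27 and −0.32 (46.2% of all genes), and 3 genes were above (53.8%). Brain barrier genes had medians of −0.21, 0.03 and 0.22 in the 3 mutants in that order, and further ETS and endothelial factor genes of −0.23, 0.03 and 0.26. Ets1, an ETS factor of vessels and other cells, was at 24.6 TPM in Isl1CKO, 30.0 TPM in Pou4f1KO, 38.01 TPM in DKO and 27.995 TPM in control. Ets2 was instead highest in control, at 36.6, 33.4 and 35.2 TPM in the mutants in that order, against 45.6 TPM. Of the 11 genes of this list measured, DKO had 8 above control (48.4% of all genes) and 3 below (51.6%). The BMP9 pathway genes had medians of −0.37, −0.16 and −0.12.

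Glia and neural crest markers had medians of −0.08, 0.31 and −0.03, and the 4 muscle markers measured of 0.41, 0.0013 and 0.44. Cardiac actin, Actc1, was at 191 TPM in Isl1CKO, 73.1 TPM in Pou4f1KO, 206 TPM in DKO and 53.9 TPM in control.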
